A study of Mus musculus with 7 samples.

Results

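The genes described here encode the machinery that folds proteins in the endoplasmic reticulum (ER) and removes those that fail to fold. The 31 members were given by name as ER chaperones, stress sensors and degradation factors. All 31 were among the 20927 genes of the count table. Of these, 30 passed the filter on low counts and were tested, and *Derl3* did not.

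Proteins that enter the secretory pathway pass through the Sec61 channel into the ER, where the Hsp70 chaperone BiP, the Hsp90 chaperone GRP94, the lectin chaperones calnexin and calreticulin and the protein disulfide isomerases assist their folding. Chains that do not fold are moved back to the cytosol, marked with ubiquitin by membrane-bound ligases and broken down by the proteasome, a route known as ER-associated degradation. The sensors ATF6, IRE1 and PERK respond to unfolded protein by raising transcription of many of these genes, and in cardiac muscle, where much of the ER is specialised as the calcium-storing sarcoplasmic reticulum, chaperones such as calreticulin also bind calcium.

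RNA came from the left ventricle of 3 WT mice (replicates 1, 3 and 4) and 4 mice homozygous for the titin missense variant A178D (replicates 1 to 4), all labelled C57BL/6J. The A178D allele was made with CRISPR-Cas9 in clonally expanded C57BL/6N embryonic stem cells, also carries a silent marker change, and was backcrossed to C57BL/6J, so that C57BL/6N sequence near the edited site and the variant cannot be told apart. The labels give neither age nor sex. The question was which transcripts of this machinery differ in hearts with the variant. The WT libraries held 51797208, 54245530 and 41102868 counts for replicates 1, 3 and 4, and the A178D libraries held 40623300, 52345529, 42174448 and 33080675 counts for replicates 1 to 4. Odd numbers made up only 17.6 to 20.3% of the counts from 1 to 20 in a library, so that both ends of a fragment may have been counted, and all counts, totals and count filters here are in that deposited unit. Levels are given as CPM, which are counts scaled to a common library size after TMM normalization, and differences as log2 fold changes of A178D over WT, each with its standard error (SE).

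A filter of 10 or more counts in 3 or more libraries kept 13894 genes. These were tested between the genotypes by edgeR's quasi-likelihood method, and a gene was called at a Benjamini-Hochberg adjusted p under 0.05 over all of them. *Ttn*, the edited gene, was at 7243, 6248 and 6485 CPM in WT replicates 1, 3 and 4, and at 5360, 6173, 6490 and 4086 CPM in A178D replicates 1 to 4. The genotypes overlapped in *Ttn*, and counts per gene do not show the edited base. Cardiomyocyte markers were abundant in every heart, led by *Myh6*. WT replicate 1 and A178D replicate 4 stood apart from the other libraries in how counts changed with transcript length. Per doubling of length, a gene's deviation from its mean over the 7 libraries changed by 0.0826 (log2) in WT replicate 1 and by -0.138 in A178D replicate 4, while the other 5 libraries had -0.014 to 0.0254. Changes of a call or of a size that came with leaving out these libraries, or with removing the trends with length and GC content, are given beside the genes they affect most.

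Among the ER genes, edgeR called only *Herpud1*, a component of the degradation complex, which was lower in A178D hearts. Of the 30 tested members, 1 was called lower (3.33%) and 0 higher, where 2.35% of all tested genes were called, 1.31% lower and 1.04% higher. At an unadjusted p under 0.05, 6 of the 30 members were lower and 0 higher, against 16.7% of all tested genes, 8.81% lower and 7.93% higher. DESeq2's Wald test also called 0 members higher and called 4 lower (13.3%), where it called 4.94% of all tested genes, 2.73% lower and 2.2% higher. In 6 of the 30 members the hearts of the genotypes did not overlap in CPM, each time with all A178D hearts below all WT hearts. Over all tested genes that held for 16.1%, with A178D below in 8.52% and above in 7.61%. Counted in either direction, the members' shares by edgeR and by overlap were thus near those of the whole table, while the share called by DESeq2 was larger than over all tested genes. All of these members were on the lower side. The log2 fold change was below 0 in 20 of the 30 members (66.7%) and in 49.5% of all tested genes. The median was -0.053 over the members and 0.002 over all tested genes, and the members ranged from -0.52 to 0.18.

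**Figure D1:**
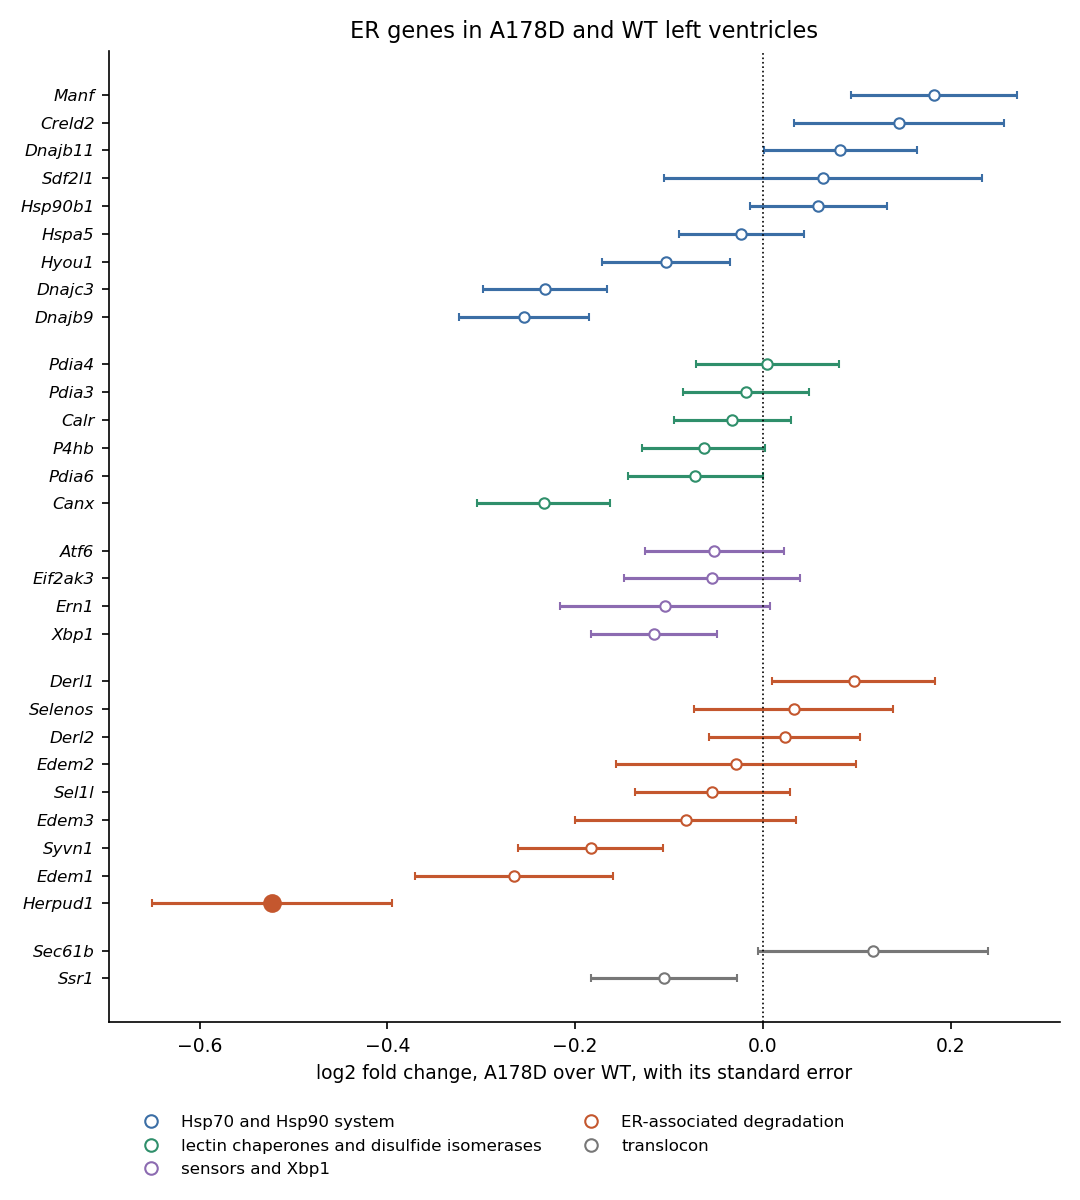
Log2 fold changes (A178D over WT, horizontal axis) of the 30 tested ER genes with their SE, grouped by role, from edgeR with 3 WT and 4 A178D hearts. The filled point is *Herpud1* at -0.52, the 1 gene with an adjusted p under 0.05, and the other 29 lie between -0.27 and 0.18.

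In the Hsp70 and Hsp90 system, the 2 abundant chaperones differed by less than their SE in edgeR with all hearts. Of its 9 members, 2 co-chaperones with J domains passed an unadjusted p of 0.05, but not the adjusted threshold, in edgeR. That is 22.2%, against 16.7% of all tested genes. Hearts did not overlap in 3 of the 9 (33.3%, against 16.1% of all tested genes), each time with A178D below. *Hspa5*, which encodes BiP, was at 670.4, 649.9 and 691 CPM in WT replicates 1, 3 and 4, and at 688, 613, 652 and 688 CPM in A178D replicates 1 to 4. The genotypes overlapped fully, with A178D replicate 2 the lowest heart. *Hspa5* had a log2 fold change of -0.02 with an SE of 0.07 (adjusted p = 0.906), so that 2 SE on either side span -0.156 to 0.11, and it took both signs (-0.045 to 0.014) with single libraries left out. *Hsp90b1*, which encodes GRP94, was at 405, 406 and 437 CPM in WT and at 457, 389, 433 and 455 CPM in A178D hearts. Here, too, the hearts overlapped, and the log2 fold change was 0.06 (SE 0.07, adjusted p = 0.736), or 0.02 without both WT replicate 1 and A178D replicate 4. Without A178D replicate 2, the lowest heart, it was 0.11 with an SE of 0.07, still not called (adjusted p = 0.516).

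*Dnajb9* encodes ERdj4, a J-domain protein that brings clients and IRE1 to BiP. Its level was 53.5, 50.8 and 56.0 CPM in WT replicates 1, 3 and 4, and 44.5, 45.4, 45.2 and 44.0 CPM in A178D replicates 1 to 4. All 4 A178D hearts lay close together and below every WT heart. *Dnajb9* had a log2 fold change of -0.25 with an SE of 0.07 and an adjusted p of 0.0753 in edgeR, and it was called by DESeq2 (adjusted p = 0.0234) and in edgeR with the length and GC trends of the libraries removed (0.0276). Over all alternatives the adjusted p of *Dnajb9* ranged from 0.0234 to 0.249. *Dnajc3* encodes P58IPK, a co-chaperone of BiP also known as an inhibitor of PERK. It was at 70.8, 69.0 and 73.2 CPM in WT and at 60.5, 61.7, 58.4 and 61.2 CPM in A178D hearts. The hearts again formed separate ranges. *Dnajc3* had a log2 fold change of -0.23 (SE 0.07, adjusted p = 0.0882), and DESeq2 called it at 0.0283, within a range of 0.0283 to 0.257 over the alternatives.

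*Hyou1* encodes GRP170, which exchanges nucleotide on BiP. It was at 55.6, 55.3 and 51.7 CPM in WT and at 50.3, 51.6, 49.0 and 50.9 CPM in A178D hearts. The ranges touched without overlap, as WT replicate 4 at 51.66 was next to A178D replicate 2 at 51.59, and the log2 fold change was -0.10 (SE 0.07, adjusted p = 0.485). The other 4 members of this group had log2 fold changes above 0, each with overlapping hearts and none called. They were *Manf* (0.18), a stress-induced partner of BiP, *Creld2* (0.14), *Dnajb11* (0.08), which encodes ERdj3, and *Sdf2l1* (0.06), a partner of ERdj3. Without both WT replicate 1 and A178D replicate 4, *Creld2* was at 0.03 (0.075 to 0.265 with single libraries left out), *Dnajb11* at -0.00046 and *Sdf2l1* at -0.08, and *Sdf2l1* was also below 0 without WT replicate 1 alone (-0.085) and with the length and GC trends removed (-0.04). *Manf* had the highest value of the 30 members, with an unadjusted p of 0.0584 and an adjusted p of 0.321 in edgeR. *Sdf2l1* was the least abundant tested member by CPM, with 130 to 251 counts in a library, and had the largest SE, 0.17.

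Among the lectin chaperones and disulfide isomerases, edgeR called 0 of 6 members. Only *Canx* had an unadjusted p under 0.05, and only its hearts did not overlap. That is 16.7% by either count, near the 16.7% and 16.1% of all tested genes. *Canx* encodes calnexin, the membrane-bound lectin that holds glycoproteins while they fold. Its level was 381, 385 and 439 CPM in WT replicates 1, 3 and 4, and 357, 341, 344 and 324 CPM in A178D replicates 1 to 4. No A178D heart reached the lowest WT heart, and WT replicate 4 was well above the other WT hearts. *Canx* had a log2 fold change of -0.23 with an SE of 0.07 and an adjusted p of 0.111, and -0.16 without WT replicate 4 (adjusted p = 0.343). It was called by DESeq2 (0.0435) and by edgeR without WT replicate 1 and A178D replicate 4 (0.0479), and its adjusted p lay between 0.0435 and 0.343 over the alternatives. *Calr*, which encodes the soluble lectin calreticulin, differed by less than its SE, with a log2 fold change of -0.03 (SE 0.06) from 204 ± 2.34 CPM (SD, n = 3) in WT and 199 ± 5.77 CPM (SD, n = 4) in A178D hearts. The disulfide isomerases *Pdia3*, *Pdia4*, *Pdia6* and *P4hb* had log2 fold changes from -0.07 to 0.005, all with overlapping hearts and adjusted p-values of 0.658 to 0.984. With the length and GC trends removed, *Calr* was at -0.09 (SE 0.05), *Pdia6* at -0.13, *P4hb* at -0.10, *Pdia3* at -0.05 and *Pdia4*, with its sign changed, at -0.04, none of them called. *Pdia3* was above 0 without WT replicate 1 (0.014) and without A178D replicate 2 (0.012).

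The sensors and *Xbp1*, the factor whose messenger RNA is spliced by IRE1, were each slightly below 0, and none was called. *Atf6* was at 174, 182 and 183 CPM in WT and at 191, 179, 163 and 160 CPM in A178D hearts. Its hearts overlapped, A178D replicate 1 being the highest of all and A178D replicate 4 the lowest. *Ern1*, which encodes IRE1, was at 13.7, 12.4 and 12.9 CPM in WT and at 12.3, 13.1, 13.0 and 9.98 CPM in A178D hearts. Of these hearts A178D replicate 4 alone was far below the rest. *Eif2ak3*, which encodes PERK, was at 14.4, 14.2 and 13.9 CPM in WT and at 14.4, 14.3, 12.8 and 13.2 CPM in A178D hearts, and the genotypes overlapped. The log2 fold changes were -0.05 (SE 0.07) for *Atf6*, -0.10 (0.11) for *Ern1* and -0.05 (0.09) for *Eif2ak3*, with adjusted p-values of 0.78, 0.687 and 0.822. *Atf6* was at -0.10 without A178D replicate 1, at -0.02 without A178D replicate 3 and at -0.015 without A178D replicate 4. With the length and GC trends removed, *Atf6* was at 0.03, on the other side of 0, and without both WT replicate 1 and A178D replicate 4 *Ern1* was at 0.01 and *Eif2ak3* at -0.025. These 3 genes have long transcripts, and A178D replicate 4 was the library with the steepest fall of counts with length.

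*Xbp1* was at 69.6, 72.7 and 69.7 CPM in WT and at 63.1, 64.8, 63.9 and 69.1 CPM in A178D hearts. The A178D hearts were all lower, but A178D replicate 4 came close to WT replicate 1. *Xbp1* had a log2 fold change of -0.12 with an SE of 0.07 (adjusted p = 0.42), and -0.18 with an SE of 0.05 (adjusted p = 0.0744) when the length and GC trends were removed. Counts per gene do not separate spliced from unspliced *Xbp1*, and the activity of the sensors was not measured.

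In ER-associated degradation, *Herpud1* was the one called gene. It encodes HERP, a short-lived membrane protein with a ubiquitin-like domain that assembles with the ligase HRD1, and it lies on chromosome 8 from 94386438 to 94395377 on the plus strand (GRCm38). *Herpud1* was at 250.1, 340.4 and 409 CPM in WT replicates 1, 3 and 4, and at 207, 227.5, 235 and 259 CPM in A178D replicates 1 to 4. WT replicates 3 and 4 were above every A178D heart, but WT replicate 1 was below A178D replicate 4, so the genotypes overlapped. The mean was 333 ± 79.8 CPM (SD, n = 3) in WT and 232 ± 21.2 CPM (SD, n = 4) in A178D hearts, and A178D hearts held 0.696 times the WT level. For the log2 fold change of -0.52 (SE 0.13), edgeR gave an unadjusted p of 0.00114 and an adjusted p of 0.0494, just under the threshold.

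The call of *Herpud1* depended on single hearts, while its direction did not. It was called in 2 of the 7 edgeR fits that each left out 1 heart, without WT replicate 1 (log2 fold change -0.69, adjusted p = 0.0015) and without A178D replicate 4 (-0.58, 0.0386). It was not called without WT replicate 3 (-0.51, 0.192), WT replicate 4 (-0.35, 0.226), A178D replicate 1 (-0.47, 0.157), A178D replicate 2 (-0.51, 0.0991) or A178D replicate 3 (-0.53, 0.103). Limma-voom gave -0.50 with an adjusted p of 0.0648, also not a call. DESeq2 gave -0.52 with 0.00292, and edgeR gave -0.60 with 0.0184 when the length and GC trends were removed. Without both WT replicate 1 and A178D replicate 4, a choice made after the trends were seen, it was -0.75 with 0.000107. Over all alternatives the adjusted p ranged from 0.000107 to 0.226.

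**Figure D2:**
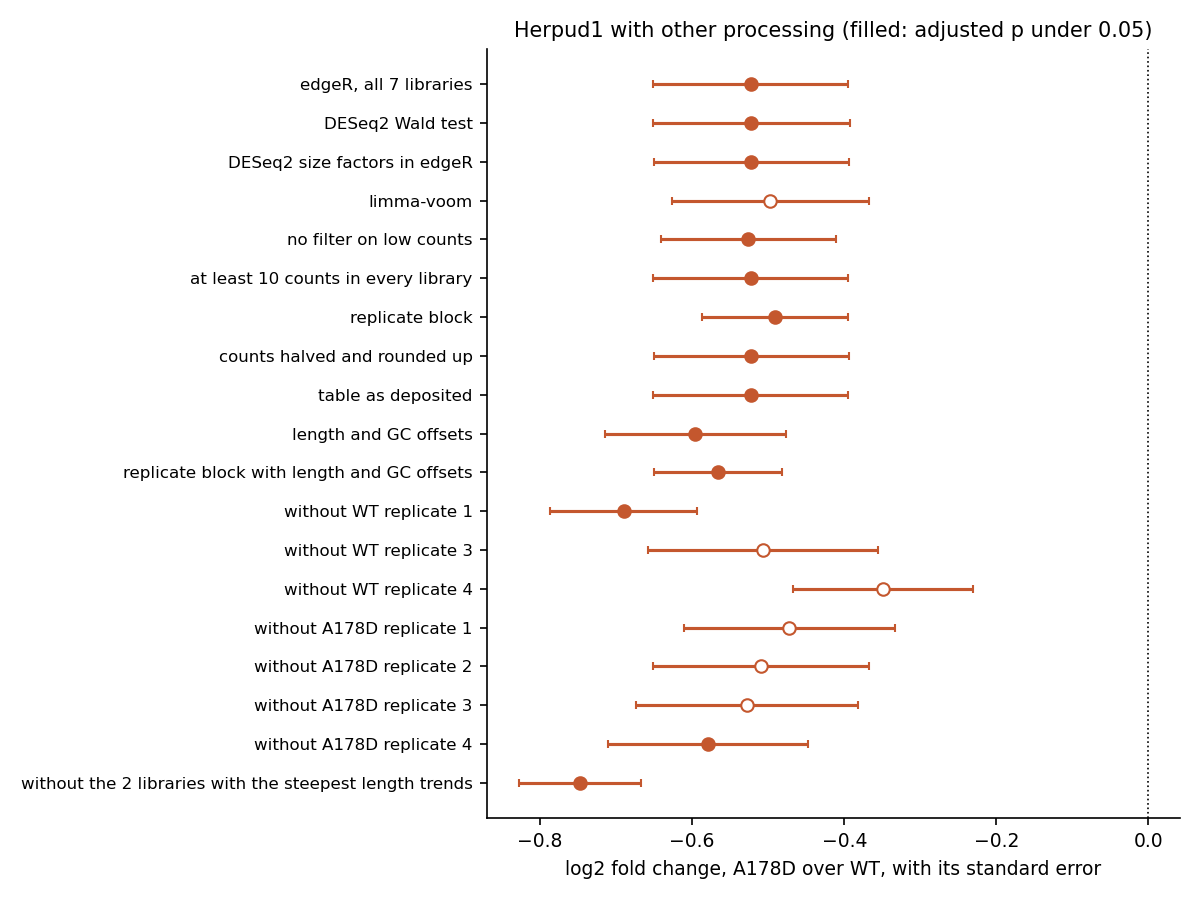
Log2 fold change of *Herpud1* (A178D over WT, horizontal axis) with its SE under each way of processing, where filled points have an adjusted p under 0.05. All points lie between -0.75 and -0.35, and 6 alternatives do not reach the threshold.

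*Edem1* encodes a mannosidase-like protein that trims glycans and so directs proteins to degradation. It was at 16.4, 17.8 and 14.5 CPM in WT and at 12.5, 14.9, 13.8 and 12.8 CPM in A178D hearts. WT replicate 4 lay below A178D replicate 2, and the other hearts were apart. *Edem1* had a log2 fold change of -0.27 with an SE of 0.11 (adjusted p = 0.224). *Syvn1* encodes HRD1, the ubiquitin ligase at the core of the complex. It was at 34.4, 35.5 and 32.5 CPM in WT and at 29.2, 32.0, 29.4 and 29.5 CPM in A178D hearts. The genotypes did not overlap, although A178D replicate 2 came close to WT replicate 4. *Syvn1* had a log2 fold change of -0.18 (SE 0.08, adjusted p = 0.251).

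**Figure D3:**
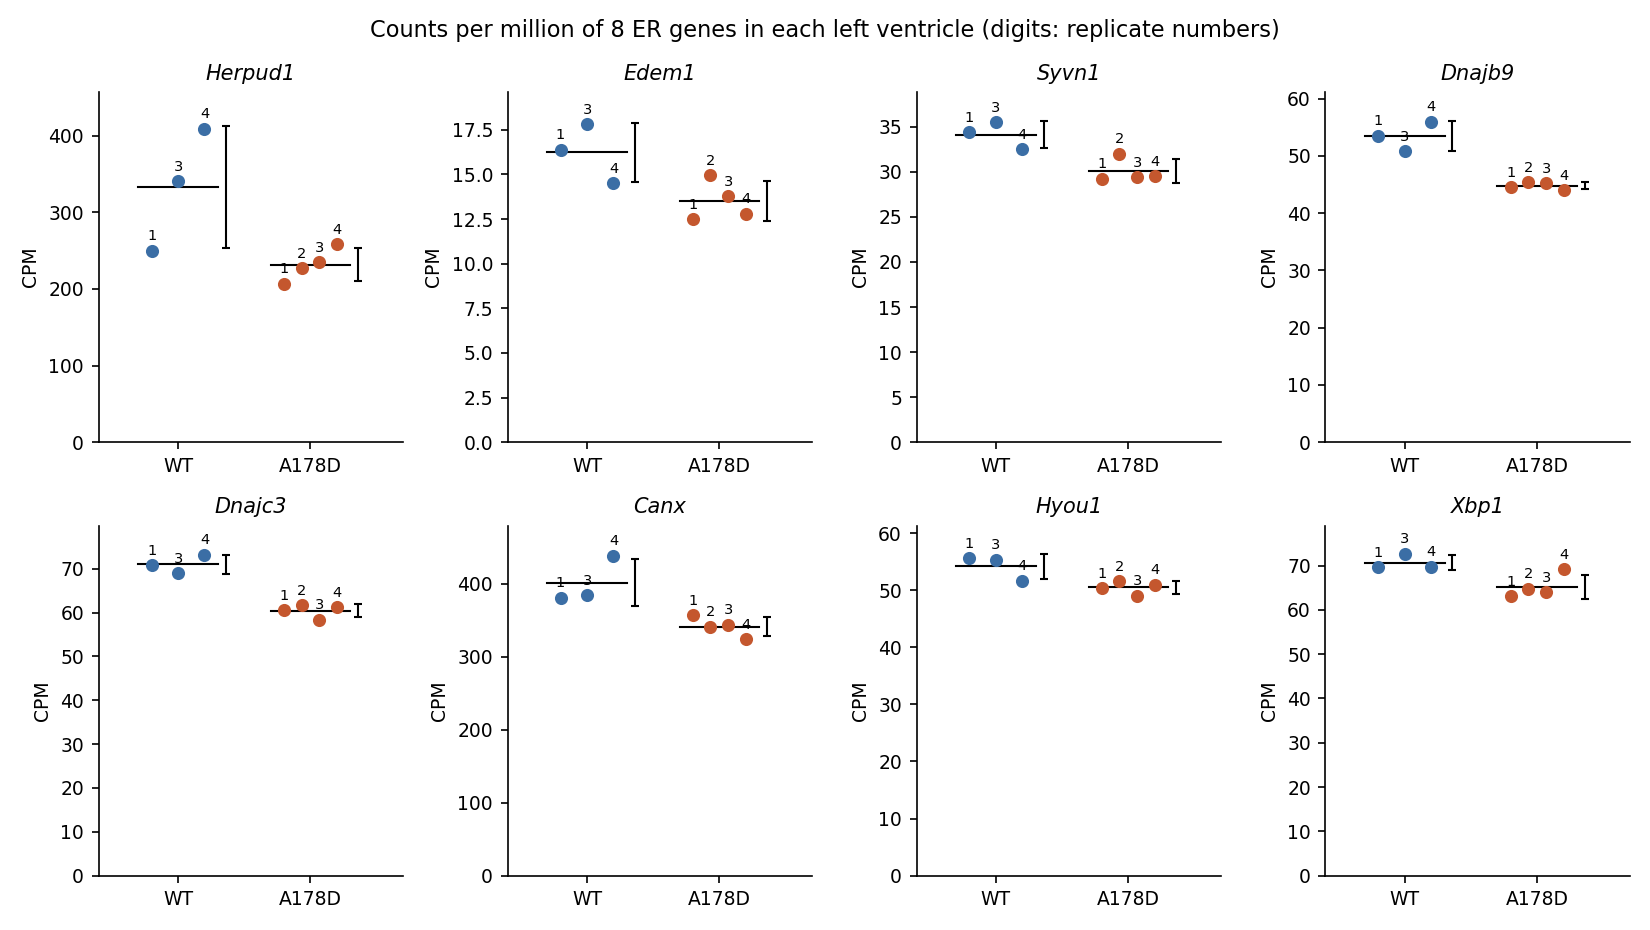
CPM (vertical axes from 0) of 8 ER genes in each left ventricle, with 3 WT (blue) and 4 A178D (orange) hearts marked by replicate number. Horizontal lines are means and bars are SD. WT and A178D hearts are apart in *Syvn1*, *Dnajb9*, *Dnajc3*, *Canx*, *Hyou1* and *Xbp1*, and overlap in *Herpud1* and *Edem1*.

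The remaining degradation genes were not called and their hearts overlapped. The other mannosidase-like genes *Edem2* and *Edem3* had log2 fold changes of -0.03 and -0.08, and *Sel1l*, which encodes the partner of HRD1, had -0.05. The derlin genes *Derl1* (0.10) and *Derl2* (0.02), whose products take part in moving proteins back through the membrane, and *Selenos* (0.03), whose product recruits the ATPase Vcp, were above 0. Of these, *Edem2*, *Derl2* and *Selenos* took either sign depending on which single library was left out, and *Derl1* ranged from 0.055 to 0.145. A178D replicate 4 was the lowest of the 7 hearts in *Edem3* (28.6 CPM) and *Sel1l* (93.1 CPM), both with long transcripts. Without that heart *Edem3* was at 0.03 and *Sel1l* at 0.01, and without WT replicate 1 as well they were at 0.08 and 0.06, *Edem2* at -0.17 and *Selenos* at -0.01. *Selenos* was also below 0 without A178D replicate 4 alone (-0.035), and with the length and GC trends removed (-0.075). *Derl3*, a further derlin gene, had 12, 7 and 1 counts in WT replicates 1, 3 and 4 and 0, 2, 6 and 3 counts in A178D replicates 1 to 4. It was tested only when the filter was dropped, where edgeR gave a log2 fold change of -0.95 with an SE as large (1.00) and an adjusted p of 0.686. The translocon genes *Sec61b*, a subunit of the Sec61 channel, and *Ssr1*, a subunit of the translocon-associated complex, had log2 fold changes of 0.12 and -0.11 with adjusted p-values of 0.675 and 0.535. *Sec61b* is short and *Ssr1* is long, and with the length and GC trends removed their values were -0.04 and 0.007, each on the other side of 0. Without both WT replicate 1 and A178D replicate 4 *Ssr1* was at -0.009.

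Compared per kilobase of exon, the members differed widely in level. *Hspa5* was first with 159 ± 4.85 CPM per kilobase in WT (SD, n = 3) and 156 ± 8.46 in A178D hearts (SD, n = 4). *Herpud1* was next in WT with 143 ± 34.2, a level whose spread included that of *Hspa5*, but had 99.4 ± 9.11 in A178D hearts, below *Hsp90b1* with 107 ± 7.78. *Hsp90b1* in WT was at 103 ± 4.54. *Canx* (85.5 ± 6.89 in WT), *Calr* (70.8 ± 0.814), *P4hb* (62.1 ± 1.84) and *Pdia3* (51.3 ± 2.48) followed, and the 3 sensors were far apart, with *Atf6* at 19.5 ± 0.509, *Eif2ak3* at 2.36 ± 0.0407 and *Ern1* last at 1.59 ± 0.078 CPM per kilobase in WT hearts.

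**Figure D4:**
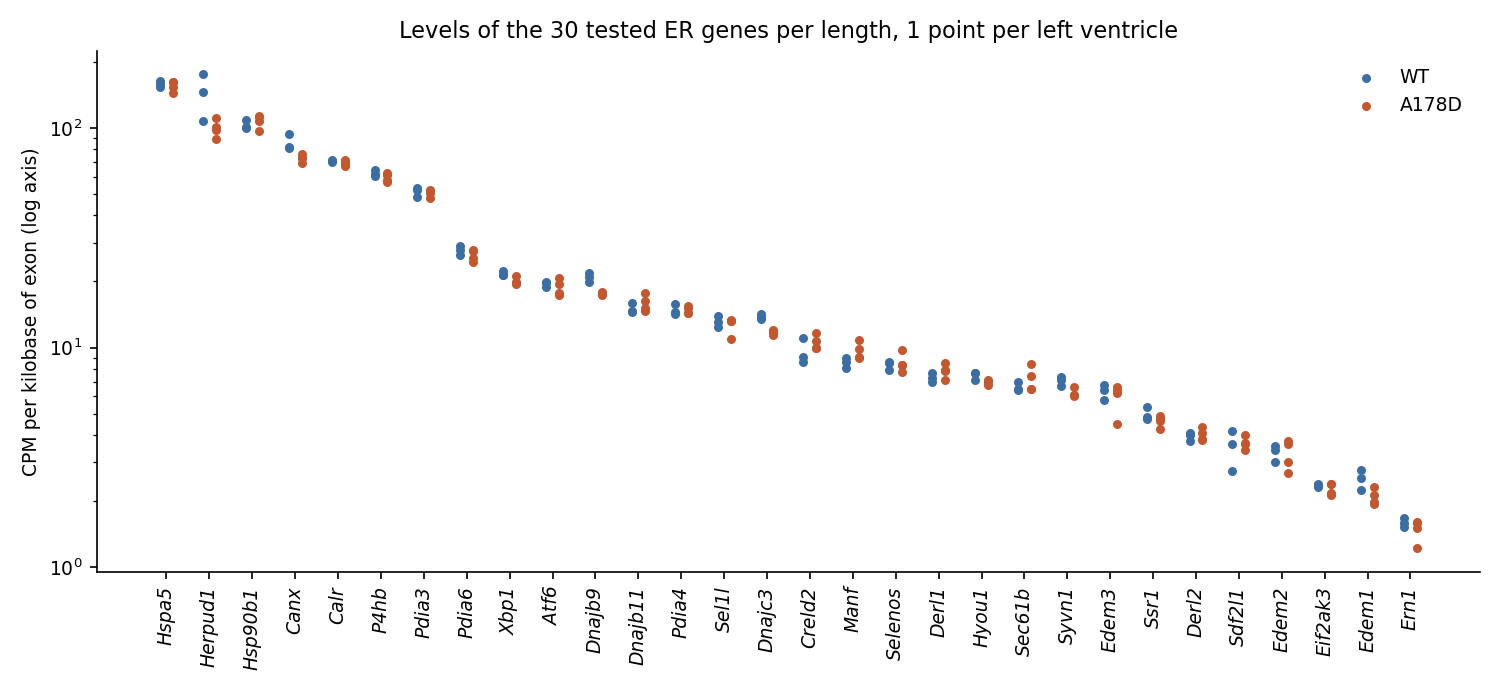
CPM per kilobase of exon (log axis) of the 30 tested ER genes in each of 3 WT (blue) and 4 A178D (orange) hearts, ordered by the mean over all hearts. *Hspa5* is highest and *Ern1* lowest, and the WT hearts of *Herpud1* are spread more widely than those of its neighbours.

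The members' median coefficient of variation was 4.83% among WT hearts and 6.2% among A178D hearts, against 8.75% and 9.87% over all tested genes. Among A178D hearts it was largest in *Edem3* (16.6%) and *Edem2* (15.5%). Among WT hearts *Herpud1* had the largest, 23.9%, followed by *Sdf2l1* with 20.3% and *Creld2* with 13.8%, and 14.5% of all tested genes varied more than *Herpud1*. In these 3 genes WT replicate 1 was the lowest WT heart. Over the 30 members it was the lowest WT heart in 10, and over all tested genes in 35.6%. Standard errors of the log2 fold changes ran from 0.06 to 0.17. In 14 members the log2 fold change with 2 SE on either side stayed within 0.25 of 0. In 6 it stayed below 0, and these were the 6 with an unadjusted p under 0.05 in edgeR. In 1, *Manf*, it lay just above 0, from 0.006 to 0.358, although edgeR's unadjusted p was 0.0584. These intervals were not counted over all tested genes, of which 8.81% were lower at an unadjusted p under 0.05 in edgeR.

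Averaged over the 30 members, the deviation from the 7-heart mean was 0.016, 0.038 and 0.048 (log2) in WT replicates 1, 3 and 4, and -0.022, -0.032, -0.04 and -0.008 in A178D replicates 1 to 4. All WT hearts lay above all A178D hearts, by a small margin, and no test was made of this mean. The degradation genes had 0.043, 0.055 and 0.09 in WT hearts and -0.078, -0.033, -0.033 and -0.044 in A178D hearts. These 9 genes include *Herpud1*, the called gene with the largest change, and their mean without it was not taken. Their median log2 fold change was -0.054, against -0.053 over all tested members. The lectin chaperones and isomerases were also apart, with 0.019 to 0.065 in WT and -0.056 to -0.006 in A178D hearts, as were the sensors with *Xbp1*, with 0.041 to 0.057 and -0.124 to 0.022. The Hsp70 and Hsp90 system overlapped, with -0.048 to 0.04 in WT and -0.056 to 0.062 in A178D hearts, and so did the 2 translocon genes. Transcript length moved with these values. In the 15 members with a longest transcript under 3018 bases, A178D replicate 4 was at 0.089 and WT replicate 1 at -0.046, and in the 15 longer members they were at -0.106 and 0.077. All tested genes split alike, with 0.085 and -0.072 under that length and -0.107 and 0.043 at or over it. Without those libraries the median log2 fold change of the members was -0.026, and 21 of 30 were below 0.

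The other genes of the pathway were taken from 4 lists written by gene name, of which 118 of 119 genes were tested. In edgeR 0 of them were called in either direction, 4 had an unadjusted p under 0.05 with a higher and 5 with a lower level in A178D hearts (7.63% together, against 16.7% of all tested genes), and DESeq2 called 1. Their median log2 fold change was -0.012, with 64 of 118 (54.2%) below 0, and their mean deviations overlapped (-0.023 to 0.027 in WT and -0.022 to 0.018 in A178D hearts). Hearts did not overlap in 8 genes with A178D below and in 7 with A178D above, or 12.7% together, against 16.1% of all tested genes.

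Among 33 folding enzymes, the 3 smallest p-values belonged to *Sdf2*, *Uggt1* and *Lman1*. *Uggt1*, the glucosyltransferase that returns unfolded glycoproteins to calnexin and calreticulin, was at 76.0, 74.5 and 77.7 CPM in WT and at 67.2, 69.4, 69.7 and 64.0 CPM in A178D hearts. Its hearts were apart, at a log2 fold change of -0.17 (SE 0.07, adjusted p = 0.217) that was -0.07 (adjusted p = 0.581) with the length and GC trends removed. *Sdf2*, a relative of *Sdf2l1*, had 0.22 (0.08, 0.194), which was 0.12 both with the trends removed and without both WT replicate 1 and A178D replicate 4, and *Lman1*, a cargo receptor for glycoproteins, had -0.14 (0.07, 0.329). Among 29 degradation genes, *Man1b1*, an ER mannosidase, had -0.17 (0.07, 0.249), *Rnf5*, a ubiquitin ligase, had 0.22 (0.09, 0.263) and *Herpud2*, the relative of *Herpud1*, had -0.15 (0.07, 0.314). *Herpud2* was at 47.2, 47.9 and 46.1 CPM in WT and at 40.7, 41.3, 43.3 and 44.7 CPM in A178D hearts, without overlap. *Rnf5* was at 0.11 with the trends removed, at 0.13 without WT replicate 1 and at 0.07 without A178D replicate 4 as well.

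Among 29 genes of translocation and signal peptide processing, *Srp72* had -0.17 (SE 0.07, adjusted p = 0.223) and *Srp19* 0.17 (0.08, 0.333), both encoding proteins of the signal recognition particle, and *Spcs1*, a signal peptidase subunit, had 0.16 (0.09, 0.365), or 0.08 both with the trends removed and without the 2 libraries that stood apart. Of 28 stress signalling genes 27 were tested. *Bak1*, a mitochondrial and ER protein of apoptosis, was at 26.2, 27.5 and 24.2 CPM in WT and at 29.2, 34.2, 31.4 and 31.6 CPM in A178D hearts. Its A178D hearts were all higher, at a log2 fold change of 0.28 with an SE of 0.09, and its adjusted p was 0.107 in edgeR and 0.0469 in DESeq2, within a range of 0.0469 to 0.309. *Atf5*, a stress-induced transcription factor, had 0.23 (0.08, 0.175) and *Crebrf*, a regulator of the stress response, had -0.23 (0.10, 0.273), or -0.12 with the trends removed and -0.14 without WT replicate 4.

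*Chac1*, an enzyme of glutathione breakdown induced downstream of PERK, is named here because of its values. It was at 1.62, 10.6 and 9.30 CPM in WT replicates 1, 3 and 4, and at 4.07, 4.02, 4.08 and 3.27 CPM in A178D replicates 1 to 4. WT replicate 1 was below, and the other WT hearts above, every A178D heart. *Chac1* had a log2 fold change of -0.88 with an SE of 0.40 and an adjusted p of 0.29 in edgeR. Without WT replicate 1 it was -1.36 with an adjusted p of 0.000207, and without WT replicate 3 it was -0.48 with 0.69. Limma-voom, with all hearts, gave *Chac1* -0.435 with an adjusted p of 0.722, and DESeq2 gave -0.89 with 0.497. WT replicate 1 thus had the lowest WT level in *Chac1* as in *Herpud1*. The factors *Atf4* and *Ddit3*, which act between PERK and *Chac1*, had log2 fold changes of -0.04 and 0.06, with adjusted p-values of 0.901 and 0.861.

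In bulk tissue, fewer cells of a type and less RNA per cell cannot be told apart, and markers of other cell types differed between the genotypes. The 11 cardiomyocyte markers, all in the table, summed to 133300, 140500 and 141300 CPM in WT and to 133900, 133700, 132400 and 140000 CPM in A178D hearts, and the genotypes overlapped. Single cardiomyocyte markers differed both ways. EdgeR called 0 of the 11, with 2 higher and 2 lower at an unadjusted p under 0.05. Hearts did not overlap in 2 with A178D below and in 2 with A178D above (36.4% together). The 8 smooth muscle and pericyte markers, led by *Abcc9*, summed to 1327, 1358 and 1332 CPM in WT and to 1035, 1124, 1194 and 948 CPM in A178D hearts. Of these 4 were called lower and 0 higher by edgeR, with 6 lower and 0 higher at an unadjusted p under 0.05, and 5 of 8 did not overlap. The 8 fibroblast markers, led by *Dcn*, summed to 1206, 1253 and 1130 CPM in WT and to 1466, 1373, 1323 and 1348 CPM in A178D hearts, with 1 called higher and 0 lower, 4 higher and 0 lower at an unadjusted p under 0.05, and 4 of 8 not overlapping. Over all tested genes 2.35% were called, 16.7% had an unadjusted p under 0.05 and 16.1% did not overlap. The part of these cell types in the results on ER genes was not tested.

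Plasma cells, which are rich in ER, were near absence by those of their markers that the table holds. The 6 of 8 plasma and B cell markers in the table summed to 2.81 to 4.62 CPM in a heart, led by *Mzb1* at a mean of 1.21 CPM. The immunoglobulin genes *Ighm* and *Igkc* were listed but not in the table, so that their levels are not known. The remaining lists had summed levels of 1519 to 1695 CPM for endothelium, 0.590 to 1.67 CPM for T and NK cells, 0.223 to 1.65 CPM for adipocytes, 1557 to 2058 CPM for skeletal muscle (led by *Ckm*, which cardiac muscle also expresses, at a mean of 1831), 100.2 to 166 CPM for erythrocytes and 11.2 to 14.6 CPM for Schwann cells. These ranges cover both genotypes. The 8 macrophage markers, led by *Csf1r*, summed to 217, 289 and 250.2 CPM in WT and to 284, 292, 259 and 290.1 CPM in A178D hearts. The sums overlapped, with WT replicate 1 the lowest. EdgeR called 0 of these markers, with 3 higher and 1 lower at an unadjusted p under 0.05 and 7 of 8 above 0. Thus 50% had an unadjusted p under 0.05, against 16.7% of all tested genes. Hearts did not overlap in 25%, each time with A178D above, against 16.1% of all tested genes. The atrial list summed to 278, 214 and 135 CPM in WT and to 557, 393, 348 and 619.8 CPM in A178D hearts, with *Nppa* its most abundant gene. These sums did not overlap. *Myl4* was at 1.90, 1.89 and 1.85 CPM in WT and at 4.01, 2.14, 2.60 and 3.06 CPM in A178D hearts. Of 3 tested atrial genes edgeR called 1 higher and 0 lower, with 2 higher and 0 lower at an unadjusted p under 0.05 (66.7%). In *Nppa* and *Myl4*, 2 of the 3 (66.7%), all A178D hearts were above all WT hearts, against 7.61% of all tested genes. The atrial markers *Myl7* (0 to 0.152 CPM) and *Sln* (0 to 0.0991 CPM) were at or near 0 and *Bmp10* had 0 counts in all hearts.

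Many ER stress genes carry a promoter motif known as the ER stress element, and a search in the promoters showed which members do. Promoters ran from 250 bases before to 50 after each RefSeq gene start (GRCm38.p6), and 27 of the 31 members had one, without *Atf6*, *Hyou1*, *Derl1* and *Manf*. Both strands were searched. The ER stress element is CCAAT and CCACG separated by 9 bases, and its variant, ERSE-II, is ATTGG and CCACG separated by 1 base. The first was found in 9 members (*Hspa5*, *Hsp90b1*, *Calr*, *Canx*, *Pdia6*, *Dnajc3*, *Creld2*, *Syvn1* and *Derl3*) and in 0.119% of the 32851 promoters in the table. The variant was found in *Herpud1* and *Dnajb11* and in 0.0365% of promoters. The unfolded protein response element, TGACG directly followed by TGG, was found in 0 members and in 0.676% of promoters. Among the lists of other pathway genes, 93 of which had a promoter entry, the ER stress element was found in 1, *Ero1b*, the variant in 0, and the unfolded protein response element in 5 (*Kdelr3*, *Txndc11*, *Txndc5*, *Ube2j1* and *Vcp*). Members with either element had a median log2 fold change of -0.052 (10 tested, 7 below 0) and members with neither had -0.054 (16 tested, 11 below 0). A match of letters does not show that a factor binds.

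Windows of 29 bases around the motif are shown for *Herpud1*, for 3 members whose hearts did not overlap and for *Hspa5*, which differed by less than its SE. Capitals mark the fixed letters of the motif, and each is written 5′ to 3′ on the strand that reads it (all on the gene's own strand). The windows of *Canx*, *Dnajc3* and *Syvn1* lie between annotated genes upstream of the start, that of *Herpud1* lies upstream of its own start in an intron of *Gm15890*, and that of *Hspa5* lies in a non-coding part of an annotated *Hspa5* exon. They are at chr8:94386368-94386396 (plus strand) for *Herpud1*, chr11:50325795-50325823 (minus strand) for *Canx*, chr14:118937822-118937850 (plus strand) for *Dnajc3*, chr19:6046527-6046555 (plus strand) for *Syvn1* and chr2:34772020-34772048 (plus strand) for *Hspa5*.
Herpud1: cgggcgctgATTGGgCCACGttggacact
Canx: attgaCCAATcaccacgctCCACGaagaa
Dnajc3: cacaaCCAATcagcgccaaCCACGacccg
Syvn1: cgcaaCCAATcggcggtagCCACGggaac
Hspa5: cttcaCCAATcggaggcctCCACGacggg
Counted from the RefSeq start, the motif began at base -52 in *Herpud1*, -145 in *Canx*, -105 in *Dnajc3*, -44 in *Syvn1* and -65 in *Hspa5*.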

How the data were processed

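Left ventricles of 3 WT and 4 A178D mice were sequenced by the authors as stranded poly(A) libraries, 1 per mouse. Raw counts of each gene were deposited, and the submitters' processing notes name bcl2fastq 2.18.0.12, HISAT2 2.1.0, SAMtools 1.6, DESeq2 1.26.0 and the build GRCm38. The counting program, its use of strand and the annotation are not given in the sources used here. A second deposited table, of counts divided by size factors, was not used.

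The table had 21257 entries, of which 268 had no gene name. Sets of entries with identical counts (442 entries in 219 sets) were counted once, which removed 223. A further 107 that repeated both an identifier and its counts were also removed, leaving 20927, and no listed gene was in a set of identical entries. Names, positions and lengths came from GENCODE M21 and promoters from RefSeq GRCm38.p6. Few hearts and finite depth both limit precision, and both enter the standard errors.

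Genotypes were compared with edgeR 4.0.16 in R 4.3.3 (TMM, glmQLFit, glmQLFTest, no covariate), with genes kept at 10 counts or more in at least 3 libraries. Calls were made at a Benjamini-Hochberg adjusted p under 0.05 over all tested genes. Alternatives were the Wald test of DESeq2 1.42.0, edgeR with DESeq2's size factors, limma-voom (limma 3.58.1), no filter, 10 or more counts in all libraries, replicate numbers as a block, counts halved and rounded up, the table as deposited, offsets for the length and GC trends of each library (mgcv 1.9.3), these with the block, and each library left out in turn. Leaving out the 2 libraries with the steepest length trends was chosen after seeing the data. The pipeline was tested on simulated data.

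The members and lists were chosen with earlier results of these data known, and no test was made over a list. Values in every heart are given for members with an unadjusted p under 0.05 or without overlap between the genotypes, for the 3 most abundant per kilobase, the 3 largest absolute log2 fold changes, and the 3 sensors with *Xbp1*. In each list of other pathway genes, called genes are named, or else the 3 with the smallest p. Beyond that rule, *Chac1*, *Atf4* and *Ddit3* were named, and *Uggt1*, *Herpud2* and *Bak1* were given in every heart, after their values were seen, as were the genes named for a motif or a spread. Promoters were searched on both strands for the 3 motifs named above.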

Additional observations from a re-analysis of the deposited data

Results flagged for a closer look

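In each group of 4 A178D hearts, a heart was marked when its gap to the nearest other heart took up most of the range of the group (Dixon's test at 95%). Chance marks about 1 in 20 groups, and 3 of the 43 genes examined were marked. *Syvn1* was at 32.04 CPM in A178D replicate 2, above the 29.22 to 29.52 CPM of the other A178D hearts. *Sel1l* was at 93.08 CPM in A178D replicate 4, below the 112.5 to 114.4 CPM of the others. *Chac1* was at 3.274 CPM in A178D replicate 4, below the 4.022 to 4.076 CPM of the others. Groups of 3 WT hearts were not examined.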

How the results depend on the processing

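Over 43 genes and 18 alternatives, 719 log2 fold changes kept their direction and their side of the threshold, 8 passed it only under the alternative, 6 passed it only in the analysis reported, and 41 changed sign. No ER gene was called higher under any alternative. With 3 and 4 hearts, differences near the size of the standard errors (0.062 to 0.169) were not resolved, and where a value changed the cause was not tested.

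In the analysis reported, 145 genes were called higher and 182 lower. DESeq2 called 306 higher and 380 lower, with 4 ER genes lower and 1 other pathway gene. Limma-voom called 0 ER genes lower. The length and GC offsets gave 204 genes higher, 290 lower and 2 ER genes lower. Without the 2 libraries with the steepest length trends, chosen after seeing the data, 353 genes were higher and 407 lower, with 2 ER genes lower, an ER gene median of -0.026 and 1 other pathway gene. Leaving out 1 library at a time gave 22 to 215 genes higher and 31 to 238 lower, 0 to 0 ER genes higher and 0 to 1 lower, an ER gene median from -0.062 to -0.034 and 0 to 1 other pathway genes.

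No sign was seen that the replicate numbers pair the samples, but correlations among so few hearts cannot decide whether they do. Same-numbered WT and A178D hearts had correlations of 0.003, -0.04 and -0.042, within the range of hearts with other numbers (-0.07 to 0.066). With the number as a block, 124 genes were called higher and 147 lower, *Herpud1* was called at -0.491, *Chac1* was at -0.616, *Hsp90b1* was at 0.108 (0.115 with the offsets as well), and the signs of *Hspa5* (0.011) and *Pdia3* (0.01) changed.

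With the length and GC offsets the sign changed for *Atf6* (0.029), *Pdia4* (-0.039), *Sdf2l1* (-0.043), *Sec61b* (-0.039), *Sel1l* (0.005), *Selenos* (-0.075) and *Ssr1* (0.007). With the offsets and the block it changed for *Atf6* (0.038), *Hspa5* (0.023), *Pdia4* (-0.021), *Sdf2l1* (-0.012), *Sec61b* (-0.075), *Sel1l* (0.006), *Selenos* (-0.074) and *Ssr1* (0.03). Without the 2 steepest libraries it changed for *Dnajb11* (-0.00046), *Edem3* (0.08), *Ern1* (0.014), *Pdia4* (-0.018), *Sdf2l1* (-0.082), *Sel1l* (0.057) and *Selenos* (-0.011). Leaving out 1 library at a time, values with changing sign ranged from -0.045 to 0.014 for *Hspa5*, -0.056 to 0.014 for *Pdia3*, -0.026 to 0.05 for *Pdia4*, -0.085 to 0.207 for *Sdf2l1*, -0.093 to 0.012 for *Sel1l*, -0.035 to 0.077 for *Selenos*, -0.015 to 0.05 for *Derl2*, -0.099 to 0.054 for *Edem2* and -0.143 to 0.029 for *Edem3*. All of these genes had an adjusted p above 0.05 in the analysis reported.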
